A study of Mus musculus with 100 samples.

Results

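The injury response of MRL/MpJ knee joints at 2-weeks post-injury was measured in 10 RNA sequencing libraries, 5 from injured right knees and 5 from the uninjured contralateral knees, chosen by strain, time and joint status from the 100 libraries of the series. MRL/MpJ is an inbred mouse strain known for unusually complete healing of ear and cartilage wounds, and the study classes it as not susceptible to post-traumatic osteoarthritis. The mice were 10 weeks old, their sex is not given in the labels, and the right knee of each received a single tibial compression of 10 to 12 N, an overload that ruptures the anterior cruciate ligament without opening the skin. The contralateral knee was the control, so a change that injury causes in both knees cannot be seen here. The labels give each joint an animal number, and the injured and uninjured joints with the same replicate number came from the same mouse, so the 10 libraries are 5 mice with both knees. Each library was made from polyadenylated RNA of a whole joint, with cartilage, bone, marrow, synovium, ligament and traces of muscle and other soft tissue together. In such a mixture, fewer cells of a type and less RNA per cell cannot be told apart. All libraries of 2-weeks belong to experimental batch 2 in the labels.

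After a ligament rupture, synovial and ligament fibroblasts divide and lay down a provisional matrix rich in type III collagen, fibronectin and periostin, which is later remodelled by metalloproteinases. Chondrocytes, the cells of articular cartilage, make type II collagen and aggrecan, and their loss together with the growth of new bone at the joint margin defines post-traumatic osteoarthritis. Inflammatory cytokines such as interleukin-6 and the chemokine Ccl2 usually rise within the first days of a joint injury, while matrix genes rise later.

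The 10 libraries held between 10248069 and 14998354 counts. A gene was called changed where its Benjamini-Hochberg adjusted p from edgeR's quasi-likelihood test was under 0.05 and its fold change was over 1.5. Levels are given as CPM, the counts of a gene scaled to library size and by the trimmed mean of M-values, and changes as log2 fold changes of the injured over the uninjured joints with their standard error (SE). The injured joints of a pair of mice stood apart from the rest. The injured library of mouse 3 was closer to the uninjured libraries (median correlation of log2 CPM 0.994) than to the other injured ones (0.990). The same held for the injured library of mouse 4 (0.979 and 0.976), which had the lowest correlations of the 10. That library held 134595 CPM of 12 fast muscle genes against 62274 to 76169 CPM in the other injured joints and 71089 to 99229 CPM in the uninjured joints, and 13783 CPM of 13 neutrophil genes against 19702 to 21296 CPM in the other injured joints. Both were kept, and the main counts are also given without them.

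Injury at 2-weeks was seen almost entirely as higher expression. Of 17310 genes tested, 198 were called higher in the injured joints, which is 1.14% of all genes, and 3 were called lower, which is 0.0173%. The median log2 fold change of the 198 genes was 0.83, with 65 over 2-fold and 7 over 4-fold. At any fold, 333 genes passed the adjusted p, 329 of them fitted higher and 4 lower. Of the 198 genes, 172 were higher in the injured knee of all 5 mice, against 4.81% of all genes, and all 198 were higher in at least 4 mice. In 129 of the 198 every injured library lay above every uninjured library, a pattern found in 1.73% of all genes. The counts were 249 higher and 2 lower without mouse 3, 170 higher and 4 lower without mouse 4, and 126 higher and 2 lower without mouse 2. Without both mouse 3 and mouse 4 they were 308 higher and 107 lower, and with the mouse as a block in the fit 192 genes were called in all (1.11%).

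The genes with the smallest adjusted p-values were, in order, Col3a1, Col14a1, Col16a1, Postn, Cd248, Aspn, Mmp2, Ptgfrn, Ssc5d and Medag, and for all of them every injured library was above every uninjured library. Cd248 encodes endosialin, a surface protein of fibroblasts and pericytes, and Aspn encodes asporin, a leucine-rich matrix protein that binds collagen. The 7 genes over 4-fold were, from the largest down, Adamts16, Mmp3, Pla2g2a, Agtr2, C1qtnf3, Crabp2 and P4ha3. Pla2g2a encodes a secreted phospholipase of the joint fluid, and measured 1.78, 7.15, 2.84, 4.57 and 5.47 CPM in the injured joints of mice 1 to 5 and 0.678, 1.22, 1.07, 0.670 and 0.513 CPM in the uninjured joints. C1qtnf3, a secreted C1q-like protein of cartilage and fibroblasts, measured 14.7, 17.6, 5.07, 29.3 and 16.6 CPM against 3.49, 3.55, 2.58, 3.10 and 3.85 CPM. In both genes the groups did not overlap, whereas Agtr2, a receptor for angiotensin II, overlapped in mouse 3.

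**Figure D1:**
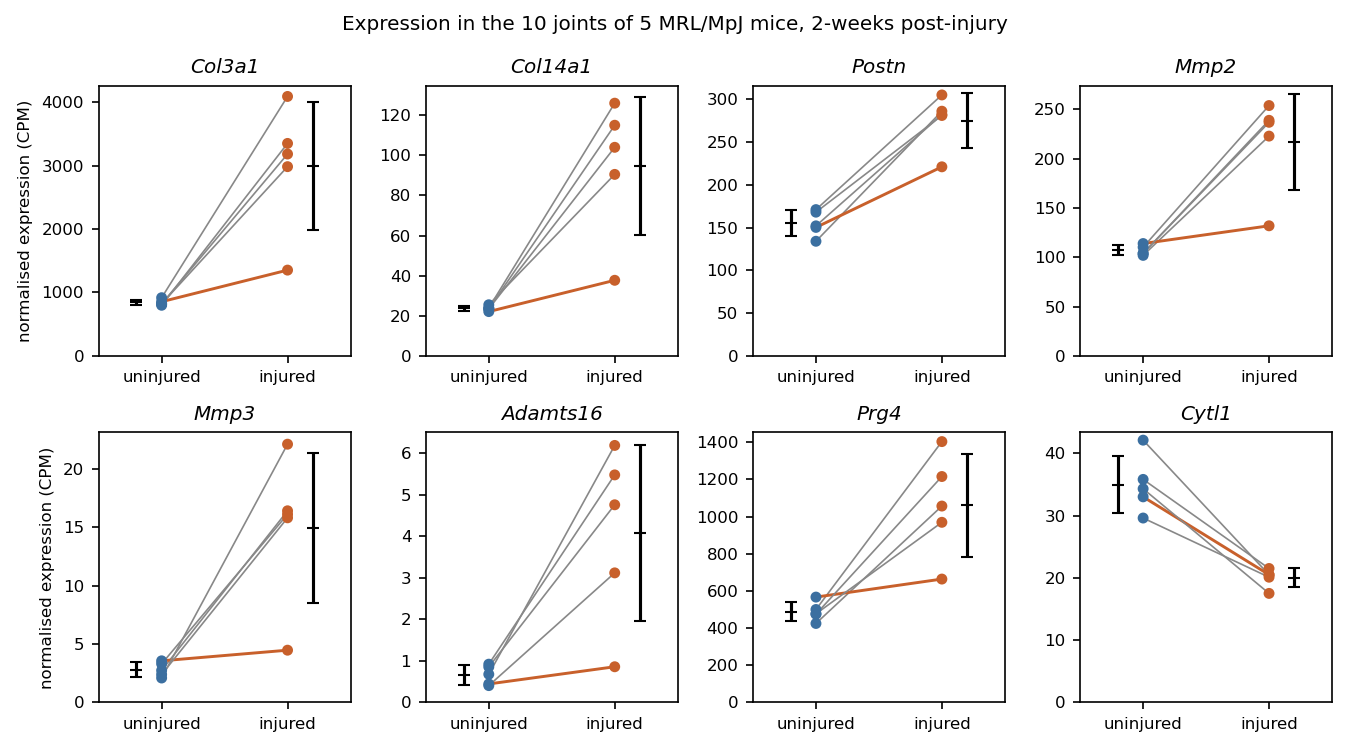
Normalised expression (CPM, linear axes from 0) of 8 genes in the uninjured and injured joints of 5 MRL/MpJ mice at 2-weeks post-injury. Points are single joints, a line joins both knees of a mouse, the orange line is mouse 3, and black bars show the mean and SD (n = 5 joints). The first 7 genes are higher in the injured knee of every mouse with the smallest rise in mouse 3, whereas Cytl1 is lower in the injured knee of all 5 mice.

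Among the fibrillar collagens the rise was largest for Col3a1. The gene, which encodes type III collagen, the early collagen of granulation tissue and repairing ligament (chromosome 1, 45311538 to 45349706), measured 2982, 3348, 1352, 4088 and 3181 CPM in the injured joints of mice 1 to 5. The uninjured joints of the same mice measured 821, 798, 854, 917 and 819 CPM. All 5 injured joints were above all uninjured joints, and the injured joint of mouse 3 was the lowest of the injured ones. The log2 fold change was 1.82 (SE 0.19, n = 5 against 5, edgeR adjusted p = 1.43e-06), and 3 of 6 fibrillar collagen genes were called higher, the others being Col5a1 (log2 fold change 0.71) and Col5a3 (0.76), which encode chains of type V collagen. The list median was 0.62 against -0.01 over all genes tested. Col1a1, which encodes the main chain of type I collagen of bone and tendon, was not called. It measured 8988, 8964, 7320, 6016 and 9104 CPM in the injured joints and 6994, 6403, 8047, 7312 and 6662 CPM in the uninjured joints, with 3 mice higher and 2 lower (log2 fold change 0.18, SE 0.11, n = 5 against 5, edgeR adjusted p = 0.902).

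Col14a1 encodes collagen XIV, which sits on the surface of type I collagen fibrils in tendon and skin (chromosome 15, 55307644 to 55520803). Its injured joints held 90.5, 115, 37.7, 126 and 104 CPM and its uninjured joints 25.5, 23.5, 22.1, 23.9 and 23.5 CPM. The groups did not overlap, and the uninjured joints spanned a narrow range. Its log2 fold change was 1.99 (SE 0.21, n = 5 against 5, edgeR adjusted p = 1.43e-06). Of the 13 measured genes of fibril-associated, type VI and related collagens, 6 were called higher and none lower, with a median log2 fold change of 0.44. The 6 were Col14a1, Col16a1 and the type VI collagen genes Col6a1 (0.95), Col6a2 (1.09), Col6a3 (0.98) and Col6a6 (1.22). Among 22 basement membrane genes, Col18a1, Lamb1 and Col15a1 were called higher (3 of 22, median 0.26).

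The enzymes that finish collagen outside and inside the cell rose in part. P4ha3, a prolyl hydroxylase that stabilises the collagen triple helix, measured 7.96, 7.70, 2.66, 10.4 and 7.93 CPM in the injured joints and 1.74, 2.43, 1.43, 1.59 and 1.37 CPM in the uninjured joints. The groups did not overlap, although the injured joint of mouse 3 was near the highest uninjured joint. The log2 fold change was 2.11 (SE 0.30, n = 5 against 5, edgeR adjusted p = 5.21e-05). With Pcolce (0.81), which speeds the cleavage of procollagen, and the lysyl oxidase-like crosslinking enzymes Loxl1 (0.67) and Loxl2 (0.80), 4 of 27 genes of this list were called, with a list median of 0.25.

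Small leucine-rich proteoglycans, which space and bind collagen fibrils, had 7 of 14 genes called higher and none lower (median log2 fold change 0.56). Aspn measured 125, 134, 90.9, 169.9 and 138 CPM in the injured joints and 54.1, 63.4, 62.5, 66.4 and 62.8 CPM in the uninjured joints, with no overlap. Its log2 fold change was 1.08 (SE 0.13, n = 5 against 5, edgeR adjusted p = 1.69e-05). The other called members were Lum (0.97), Bgn (0.74), Dcn (0.59), Prelp (0.81), Kera (0.91) and Fmod (0.61). With the mouse as a block Dcn (0.57) and Fmod (0.58) fell under the fold threshold, leaving 5 of 14, and 5 of 14 were called without the injured library of mouse 4.

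The list of activated fibroblast and matricellular genes held the most called genes, 16 of 36, with a median log2 fold change of 0.47 and none lower. Postn encodes periostin, a matrix protein of ligament and periosteum that repair tissue makes in quantity (chromosome 3, 54359267 to 54391041). It measured 286, 281, 221, 305 and 282 CPM in the injured joints and 134, 168, 150.2, 171 and 152 CPM in the uninjured joints. The groups did not overlap, and the log2 fold change was 0.82 (SE 0.10, n = 5 against 5, edgeR adjusted p = 8.75e-06). Fn1, which encodes fibronectin, rose by 1.11 on the log2 scale, the microfibril genes Mfap2, Mfap4 and Mfap5 by 1.31, 1.53 and 1.38, and the elastin gene Eln by 0.95. Thbs2, Thbs3 and Thbs4 (thrombospondins), Cthrc1 and Lrrc15 (genes of activated fibroblasts) and Fbn1 (fibrillin) were also called higher. Acta2, which encodes the smooth muscle actin of myofibroblasts and vessels, was not called. Its injured joints measured 56.0, 56.7, 79.6, 102 and 57.9 CPM and its uninjured joints 63.6, 61.3, 80.0, 64.8 and 62.7 CPM, so that only mouse 4 was higher in the injured joint.

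**Figure D2:**
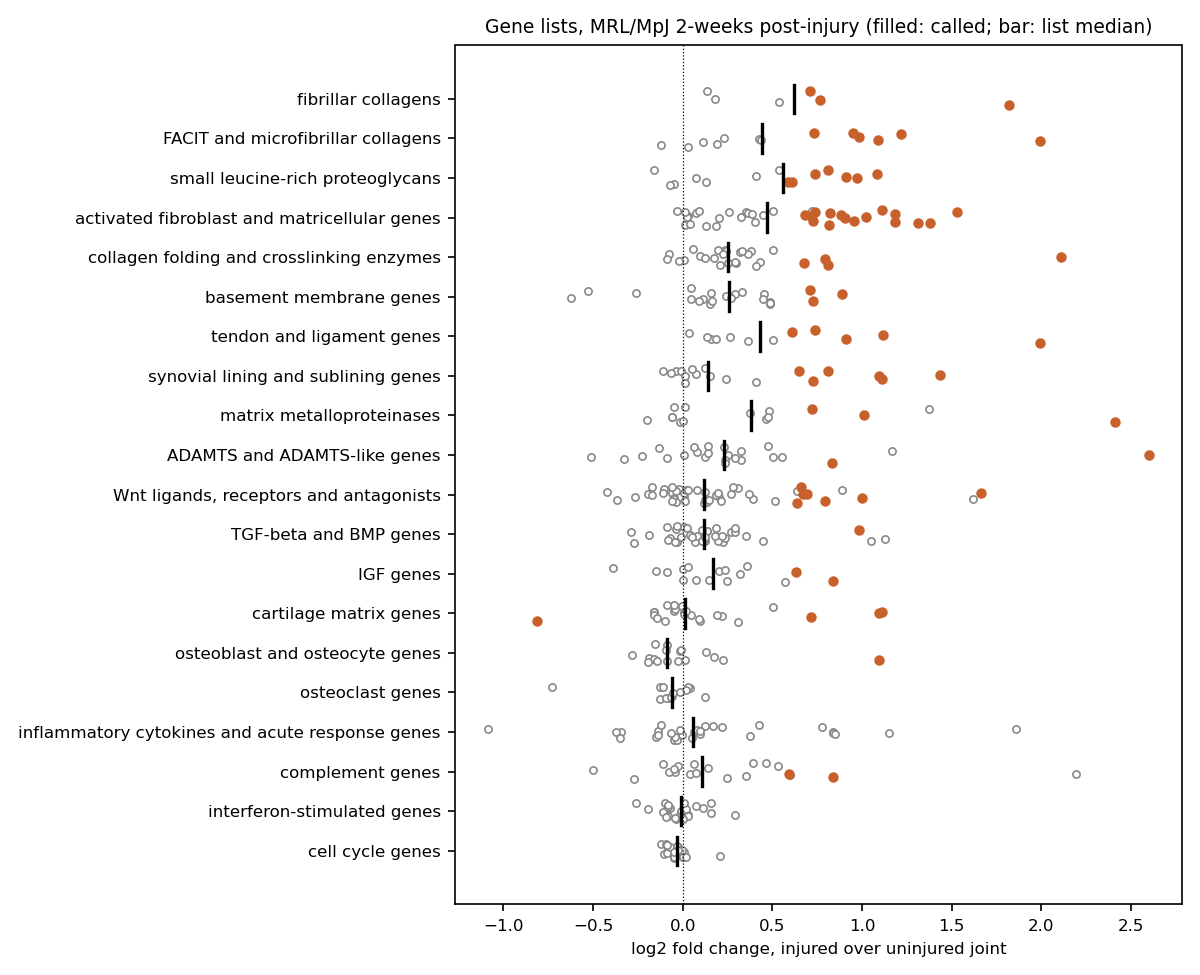
Log2 fold changes (injured over uninjured joint, x axis) of the members of 20 gene lists (y axis) in MRL/MpJ at 2-weeks post-injury. Each circle is 1 gene, filled circles passed the adjusted p and the fold threshold, and the black bar is the list median. Filled circles gather in the matrix, fibroblast, tendon and synovial lists, and none stands in the osteoclast, cytokine, interferon and cell cycle lists.

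Tendon and ligament genes had 5 of 12 members called higher (median log2 fold change 0.43), among them Tnmd (1.12), which encodes tenomodulin, a membrane protein of tendon cells. The other 4, Col14a1, Thbs4, Kera and Fmod, are also members of the matrix lists above. The transcription factors Scx and Mkx of the same list, which specify tendon cells, were not called. Among synovial lining and sublining genes, 6 of 18 were called higher (Pdpn, Htra4, Prg4, Thy1, Hbegf and Has1), with a median of 0.14.

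Prg4 encodes lubricin, the lubricant of the joint surface that synovial lining cells and superficial chondrocytes secrete (chromosome 1, 150449412 to 150466221). It measured 1404, 1057, 664, 969.5 and 1216 CPM in the injured joints and 500.2, 425, 567, 477 and 475 CPM in the uninjured joints. The groups did not overlap, and the joints of mouse 3 were the closest pair. The log2 fold change was 1.11 (SE 0.17, n = 5 against 5, edgeR adjusted p = 0.000213). Pdpn, which encodes podoplanin, a surface protein of synovial lining fibroblasts and young osteocytes, measured 20.1, 20, 11.3, 19.2 and 18.1 CPM in the injured joints. In the uninjured joints it measured 7.37, 9.42, 7.30, 7.62 and 9.58 CPM, again below every injured joint (log2 fold change 1.09, SE 0.15, n = 5 against 5, edgeR adjusted p = 3.48e-05).

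Of the enzymes that cut matrix, 3 of 15 measured matrix metalloproteinases (Mmp2, Mmp3 and Mmp19) and 2 of 24 ADAMTS and ADAMTS-like genes (Adamts16 and Adamts15) were called higher, and none of either list lower. The list medians were 0.38 and 0.23. Mmp2, gelatinase A, which fibroblasts make throughout the body (chromosome 8, 92827290 to 92853421), measured 223, 237, 132, 254 and 239 CPM in the injured joints. The uninjured joints measured 102, 104, 114, 110.3 and 104 CPM, all of them lower (log2 fold change 1.01, SE 0.13, n = 5 against 5, edgeR adjusted p = 1.96e-05). Mmp3, stromelysin-1, which cuts proteoglycans and activates other metalloproteinases (chromosome 9, 7445822 to 7455975), measured 16.1, 16.4, 4.47, 22.1 and 15.8 CPM in the injured joints. Its uninjured joints measured 3.30, 2.74, 3.56, 2.09 and 2.39 CPM, with no overlap and a log2 fold change of 2.41 (SE 0.47, n = 5 against 5, edgeR adjusted p = 0.00258).

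Adamts16, a secreted protease of the ADAMTS family (chromosome 13, 70727798 to 70841845), had the largest log2 fold change of the 198 genes. It measured 6.19, 3.12, 0.859, 5.48 and 4.76 CPM in the injured joints and 0.678, 0.405, 0.445, 0.921 and 0.855 CPM in the uninjured joints. The groups overlapped in the injured joint of mouse 3, which lay below the highest uninjured joint while exceeding its own contralateral joint. The log2 fold change was 2.60 (SE 0.43, n = 5 against 5, edgeR adjusted p = 0.000403). The aggrecan-cutting enzymes Adamts4 and Adamts5 were not called, with log2 fold changes of 0.50 (SE 0.20, n = 5 against 5, edgeR adjusted p = 0.407) and 0.23 (SE 0.07, n = 5 against 5, edgeR adjusted p = 0.149), although both were higher in the injured knee of all 5 mice. Adamts4 did not overlap between the groups, at 4.21 to 5.48 CPM in the injured and 2.76 to 4.11 CPM in the uninjured joints.

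Mmp13, collagenase-3, the main enzyme that cuts type II collagen in mouse cartilage, measured 525, 537, 367, 253 and 545 CPM in the injured joints and 428, 449, 394, 516 and 449.7 CPM in the uninjured joints. It was higher in 3 mice and lower in 2, with a log2 fold change of -0.02 (SE 0.16, n = 5 against 5, edgeR adjusted p = 1). Mmp14, the membrane protease that activates the Mmp2 proenzyme, passed the adjusted p but not the fold threshold (log2 fold change 0.48, SE 0.09, n = 5 against 5, edgeR adjusted p = 0.00122). Timp1, which encodes a secreted inhibitor of metalloproteinases, was the 1 called gene of the 5 inhibitors. It measured 25.3, 23.3, 17.4, 22.8 and 23.5 CPM in the injured joints and 12.9, 13.9, 14.5, 10.9 and 11.5 CPM in the uninjured joints. The groups did not overlap (log2 fold change 0.81, SE 0.17, n = 5 against 5, edgeR adjusted p = 0.0053). Without mouse 5 neither Timp1 nor Mmp19 was called (edgeR adjusted p = 0.0534 and 0.0585). Of 35 metallopeptidases that the study tabulated, a list chosen on these samples and so not independent evidence, 10 were called higher, including the carboxypeptidase-related genes Aebp1 (0.88), Cpxm1 (0.76) and Cpxm2 (0.91) and the aminopeptidase gene Anpep (0.75).

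The promoters of Mmp3 and Col3a1 are shown because they belong to a protease and a structural collagen that were called higher, and because their start regions hold different motifs. Both are RefSeq sequences of the GRCm38.p6 assembly on the plus strand, from 250 bases before to 50 bases after the annotated start, written 5′ to 3′ with the motifs found in capitals. The motifs searched, on both strands, were AP-1 (TGANTCA), the SMAD-binding element (GTCTAGAC), the CAGA box (CAGACA), TEAD (CATTCC), RUNX (TGTGGT) and the TATA box (TATAAA).
Mmp3, chr9:7445572-7445871: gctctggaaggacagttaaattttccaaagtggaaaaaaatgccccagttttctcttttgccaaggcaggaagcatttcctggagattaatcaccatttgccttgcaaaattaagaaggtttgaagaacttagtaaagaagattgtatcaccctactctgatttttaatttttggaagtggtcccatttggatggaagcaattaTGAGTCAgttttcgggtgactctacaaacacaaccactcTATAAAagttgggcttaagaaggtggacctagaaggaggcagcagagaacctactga
Col3a1, chr1:45311288-45311587: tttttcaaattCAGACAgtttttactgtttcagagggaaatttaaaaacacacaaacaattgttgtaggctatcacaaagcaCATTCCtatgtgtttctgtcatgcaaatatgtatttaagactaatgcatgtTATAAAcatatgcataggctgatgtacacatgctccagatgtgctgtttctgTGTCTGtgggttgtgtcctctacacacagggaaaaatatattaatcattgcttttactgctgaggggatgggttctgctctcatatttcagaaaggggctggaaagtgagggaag
Positions give the first base of a motif, with -1 as the base before the annotated start. The Mmp3 window held an AP-1 motif at -46 and a TATA motif at -7. The Col3a1 window held no AP-1 motif, but the CAGA box at -239 and, on the other strand, at -65, a TEAD motif at -168 and a TATA motif at -117. Promoter sequences matched 12794 of the tested genes by symbol, 134 of them called higher. An AP-1 motif was in 5.68% of all matched promoters and in 19 of the 134 (14.2%), and a TATA motif in 8.39% and in 20 of the 134 (14.9%). The CAGA box was in 16.9% of all and 18.7% of the called promoters, TEAD in 12.6% and 14.9%, RUNX in 13.5% and 14.9%, and the SMAD-binding element in 0.195% and 0%. These matches describe letters in a window, and no test was made of them.

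Genes of cartilage matrix moved little as a list, with 3 of 24 called higher, 1 lower and a median log2 fold change of 0.01. Besides Prg4, the called ones were Matn4 (1.09) and Comp (0.72), which are also made in tendon and synovium. Cytl1, which encodes a cytokine-like protein secreted by chondrocytes (chromosome 5, 37735519 to 37739820), was the only gene of any list called lower. It measured 20.5, 20.1, 20.5, 17.5 and 21.5 CPM in the injured joints and 42.1, 29.6, 33.0, 34.3 and 35.8 CPM in the uninjured joints. The groups did not overlap, and the injured joint was lower in all 5 mice, mouse 3 included (log2 fold change -0.81, SE 0.17, n = 5 against 5, edgeR adjusted p = 0.00602). In the fit of all 100 libraries its adjusted p was 0.127, and without mouse 1 it was 0.0518 (edgeR). The other called lower genes, 0610009E02Rik and 4933430I17Rik, lay under 0.7 CPM in every library and were lost with the mouse as a block (edgeR adjusted p = 0.066 and 0.0706).

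Col2a1, which encodes type II collagen, measured 1374, 1582, 1165, 714 and 1528 CPM in the injured joints and 1321, 894, 1237, 1358 and 1097 CPM in the uninjured joints. It was higher in 3 mice and lower in mice 3 and 4 (log2 fold change 0.10, SE 0.17, n = 5 against 5, edgeR adjusted p = 1). Acan, which encodes aggrecan, was not called either (0.31, SE 0.15, n = 5 against 5, edgeR adjusted p = 0.684). Sox9, the transcription factor that specifies chondrocytes, measured 11.5 to 16.7 CPM in the injured and 10.8 to 13.1 CPM in the uninjured joints, and Runx1 50.9 to 78.9 and 56.6 to 68.6 CPM, with overlap in both. Of 23 chondrogenic and osteogenic transcription factors only Prrx2, a homeobox gene of limb mesenchyme, was called higher (3.01 to 4.40 CPM against 1.25 to 2.03 CPM, log2 fold change 0.98, SE 0.21, n = 5 against 5, edgeR adjusted p = 0.00711). Its adjusted p was 0.0528 without mouse 2 (edgeR). Pdpn was the 1 called gene of 17 osteoblast and osteocyte genes (median -0.09), and none of 14 osteoclast genes was called by edgeR or by DESeq2, with 1 at an unadjusted p under 0.05.

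Of 48 Wnt ligands, receptors and antagonists, 7 were called higher and none lower, with a list median of 0.12. They were the secreted frizzled-related proteins Sfrp1 (0.69), Sfrp2 (1.66) and Sfrp4 (0.64), which bind Wnt ligands, the Dickkopf genes Dkk2 (0.79) and Dkk3 (0.66), the receptor gene Fzd2 (0.67) and the agonist gene Rspo2 (1.00). No gene of a Wnt ligand was called. Fzd2 was not called without mouse 2 (edgeR adjusted p = 0.0664). Sfrp2 measured 21.9, 25.6, 10.7, 30.3 and 25.1 CPM in the injured joints and 7.17, 6.89, 7.93, 7.71 and 5.99 CPM in the uninjured joints, with no overlap (log2 fold change 1.66, SE 0.22, n = 5 against 5, edgeR adjusted p = 3.48e-05). Sfrp1 was less firm, since its groups overlapped in mouse 3 and its highest adjusted p with 1 library left out was 0.0858 (edgeR).

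Fstl1, which encodes a follistatin-like glycoprotein of mesenchymal cells, was the only one of 40 TGF-beta and BMP genes called (list median 0.12). It measured 315, 343, 181, 397 and 323 CPM in the injured joints and 157, 153, 159, 169.9 and 145 CPM in the uninjured joints, with no overlap (log2 fold change 0.98, SE 0.14, n = 5 against 5, edgeR adjusted p = 5.21e-05). Igf1, the growth factor that stimulates matrix synthesis in cartilage and tendon, measured 107, 138, 77.6, 140.3 and 129.6 CPM in the injured joints. It measured 60.6, 67.0, 69.7, 65.2 and 67.7 CPM in the uninjured joints, with no overlap (log2 fold change 0.84, SE 0.14, n = 5 against 5, edgeR adjusted p = 0.000558). Igf1 and Igfbp6 (0.63) were called among 16 IGF genes, and 1 of the 16 without the injured library of mouse 4. Nox4, an oxidase that makes hydrogen peroxide in fibroblasts, rose by 1.57 on the log2 scale (SE 0.23, n = 5 against 5, edgeR adjusted p = 8.96e-05), and with Sod3, extracellular superoxide dismutase (0.77), made up the 2 called of 24 oxidative stress genes. Pxdn, a peroxidase that crosslinks type IV collagen, passed the adjusted p but not the fold threshold (0.57, SE 0.12, n = 5 against 5, edgeR adjusted p = 0.00322). It lay close to that threshold and was called with RLE size factors (0.59), with DESeq2 (0.59), with filterByExpr (0.61) and without mouse 3 (0.65).

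The lists of inflammatory cytokine genes held no called member, although the chemokine gene Ccl24, which is in neither list, was called higher. Of 30 inflammatory cytokines and acute response genes, none was called by edgeR or by DESeq2 in either direction, and 3 had an unadjusted p under 0.05 (median log2 fold change 0.06). The same held for the 25 cytokines that the study tabulated on these samples, with 2 at an unadjusted p under 0.05. Il6 measured 0.0761 to 0.601 CPM in the injured and 0 to 0.405 CPM in the uninjured joints, and Ccl2 0.172 to 0.533 and 0.0891 to 0.582 CPM, so both lay at 7 counts or fewer in every library. A modest change may be missed at such counts, which was not tested. Il33, an alarmin of fibroblasts and epithelia, was better covered, at 6.54, 6.69, 4.04, 9.59 and 8.57 CPM in the injured and 7.56, 4.97, 4.36, 4.36 and 5.22 CPM in the uninjured joints. It was higher in 3 mice and was not called (log2 fold change 0.43, SE 0.22, n = 5 against 5, edgeR adjusted p = 0.735). None of 25 interferon-stimulated genes, 30 cell cycle genes, 10 heat shock genes, 17 immediate early genes or 18 nerve growth and Schwann cell genes was called by edgeR or DESeq2, with 0, 1, 0, 2 and 1 of them at an unadjusted p under 0.05. Over all genes, 1.14% were called higher and 1298 of 17310 had an unadjusted p under 0.05. A short list without a call is near that share and says little about its genes, here and in the other paragraphs. Apln, an angiogenic peptide gene, was the only one of 27 angiogenesis and endothelial genes called (0.77, edgeR adjusted p = 0.0488), and was lost with the mouse as a block (edgeR adjusted p = 0.0712). Complement had C1s1 (0.59) and the receptor gene C3ar1 (0.84) called of 20 genes, against 1 higher and 1 lower without the injured library of mouse 4, and C1s1 fell just under the fold threshold with the mouse as a block (0.58).

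Markers of other cell types were followed beside these genes. Of 22 macrophage markers, Gpnmb and Ms4a7 were called higher (log2 fold changes 1.25 and 0.60), while Cd68 (-0.02) and Csf1r (0.09) were not, and 7 had an unadjusted p under 0.05. The summed level was 776, 799, 639, 585 and 803 CPM in the injured joints of mice 1 to 5, against 627 to 734 CPM in the uninjured joints. Mice 1, 2 and 5 lay above every uninjured joint, and mice 3 and 4 below their own contralateral joints (694 and 734 CPM). The called macrophage markers were 1 without the injured library of mouse 4, 3 without mouse 3 and 5 without mice 3 and 4. None of the markers of fast muscle (12 measured), slow muscle (8), neutrophils (13), T cells (11), B cells (11), mast cells (10), erythroid cells (8), fat (14) or skin (3) was called by edgeR or DESeq2, with 0, 0, 0, 2, 0, 1, 0, 1 and 0 of them at an unadjusted p under 0.05. Summed levels of T cell markers were 42.9 to 57.3 CPM against 53.6 to 63.6 CPM, and those of fat 899 to 1791 CPM against 1135 to 1378 CPM. No marker of these lists was at 0 in all 10 libraries. None of the 25 housekeeping genes of the study was called by edgeR or DESeq2, with 1 at an unadjusted p under 0.05, at a summed 11502 to 12688 CPM in the injured and 11966 to 12378 CPM in the uninjured joints. The part of marrow, muscle and fat in the results above was not tested beyond leaving out mouse 4. None of the 21 genes that the study tabulated as MRL/MpJ candidates, among them Mamdc2, B4galnt2 and Tpsab1, was called in this comparison by edgeR or DESeq2, with 3 at an unadjusted p under 0.05. Without the injured library of mouse 4, 1 was called higher. The study chose these genes for differing between MRL/MpJ and the other strains, injured or not. A comparison of knees within MRL/MpJ does not address that.

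**Figure D3:**
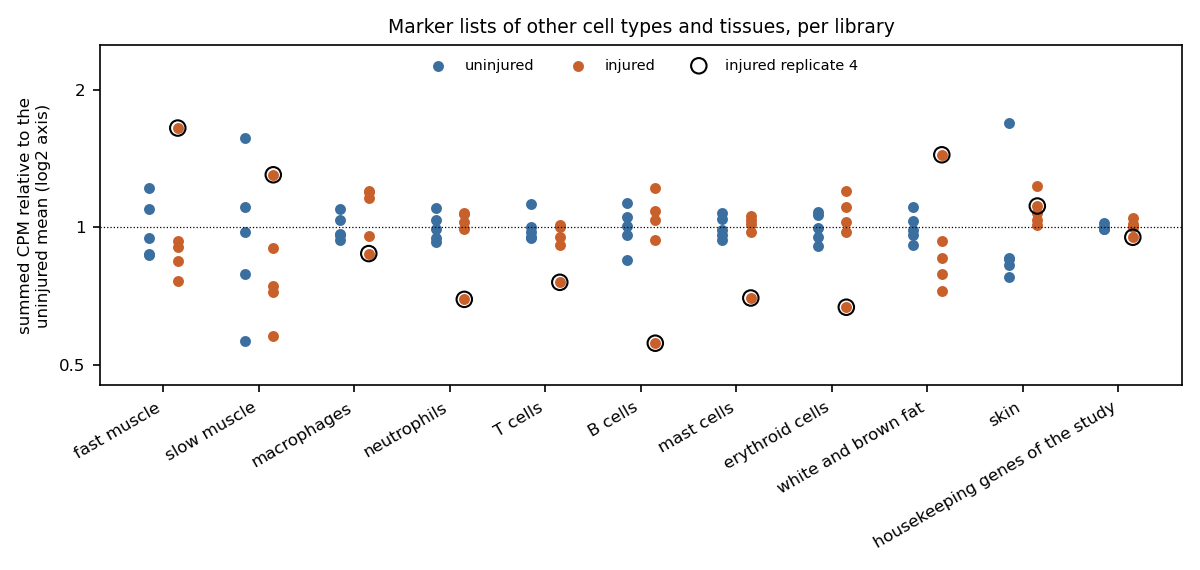
Summed CPM of marker lists in each library, divided by the mean of the 5 uninjured joints (y axis, log2 scale), for 10 cell types or tissues and the housekeeping genes (x axis). Blue points are uninjured joints, orange points injured joints, and a black ring marks injured replicate 4. That library is the highest in fast muscle and fat and the lowest in macrophage, neutrophil, T cell, B cell, mast cell, erythroid and housekeeping lists.

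The difference between the knees was not of the same size in the 5 mice. To see each mouse against calls it had no part in, genes were called higher in the other 4 mice and their log2 CPM ratio of injured over uninjured joint was read in the mouse left out. The median ratio was 0.83 in mouse 1 (170 genes), 1.09 in mouse 2 (126 genes), 1.01 in mouse 4 (170 genes) and 0.98 in mouse 5 (135 genes), with between 98.2% and 99.3% of the genes higher in the injured joint. In mouse 3 the median ratio was 0.19 over 249 genes, and 192 of them (77.1%) were higher, against 47.6% of all genes tested in that mouse. Col3a1 in mouse 3 had a ratio of 0.66 on the log2 scale against 1.86 to 2.16 in the other mice. Cytl1 (-0.68) and Htra4 (0.64) in mouse 3 lay nearer to the other mice, which ranged from -1.03 to -0.56 for Cytl1 and from 0.66 to 1.24 for Htra4. The cause of the smaller differences in mouse 3 was not tested. Without mice 3 and 4 the genes called higher went from 198 to 308 over all genes. Among the lists they were 7 of 27 collagen folding and crosslinking enzymes, 5 of 15 matrix metalloproteinases (Mmp14 among them, at 0.72), 2 of 5 of their inhibitors, 3 of 40 TGF-beta and BMP genes, 4 of 20 complement genes and 2 of 23 chondrogenic and osteogenic transcription factors, against 4, 3, 1, 1, 2 and 1 with all mice, while the Wnt list went from 7 to 6 and the angiogenesis list from 1 to 0.

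**Figure D4:**
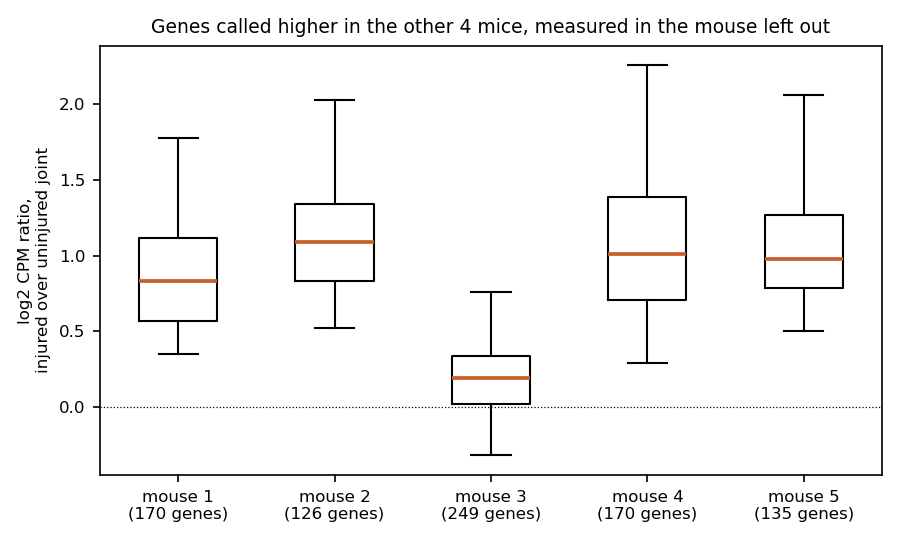
Log2 CPM ratio of injured over uninjured joint (y axis) in each of 5 MRL/MpJ mice (x axis), for the genes called higher in the other 4 mice. Boxes span the quartiles with the median in orange, and whiskers reach the percentiles 5 and 95. The boxes of mice 1, 2, 4 and 5 lie wholly above 0.5, and that of mouse 3 lies between 0.02 and 0.34.

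The same genes moved in the other strains and 1 week earlier. C57BL/6 and STR/ort joints at 2-weeks (10 libraries each, same injury, age and batch) had 499 and 752 genes called higher (2.88% and 4.34% of all genes) and 12 and 55 called lower (0.0693% and 0.318%). Of the 198 genes called higher in MRL/MpJ, 184 were also called higher in C57BL/6, which is 92.9% of the MRL/MpJ genes and 36.9% of the C57BL/6 genes. In STR/ort 178 were called higher, 89.9% of the MRL/MpJ and 23.7% of the STR/ort genes, and 172 were called in all 3 strains. The median log2 fold change of the 198 genes was 0.83 in MRL/MpJ, 1.06 in C57BL/6 and 1.22 in STR/ort. The strains share no libraries, but their common fit gave each gene a shared estimate of spread, so the calls are not independent. The 8 genes called higher only in MRL/MpJ were Ace, Ccl24, Ddah2, Fam124a, Galnt9, Klhl35, Serpina1b and Vipr2. A call in 1 strain and not in another is no test of a difference.

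The difference of the injury effect between strains was tested as an interaction in the fit of all 30 libraries of 2-weeks. Against C57BL/6 no gene (0% of all genes) was called by edgeR's quasi-likelihood test, with 984 genes at an unadjusted p under 0.05, and 2 genes were called by DESeq2 and 3 by edgeR's likelihood ratio test. The count was 24 without mouse 4 (9 larger and 15 smaller in C57BL/6) and 334 without mice 3 and 4 (237 larger and 97 smaller). Against STR/ort the test called 78 genes (0.451% of all genes), 75 with a larger effect in STR/ort, all 75 of them called higher in STR/ort, and 3 with a smaller one. This count and its split moved with the libraries and settings used. It was 16 without mouse 3 (14 larger and 2 smaller in STR/ort, 15 of the 16 among the 78), 148 without mouse 4 (101 larger and 47 smaller) and 229 without both (85 larger and 144 smaller, 45 of the 229 among the 78). It was 150 without the injured library of mouse 4 (112 larger and 38 smaller), 43 without that of mouse 3, 21 without the uninjured library of mouse 1, 122 without STR/ort injured replicate 3 and 39 without STR/ort injured replicate 5.

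Among genes of the lists, the rise was smaller in MRL/MpJ than in STR/ort for Timp1 (log2 fold change 0.81 against 1.98, difference 1.17, SE 0.23, edgeR adjusted p = 0.0156), Mmp19 (0.72 against 1.70, difference 0.98, SE 0.20, edgeR adjusted p = 0.018), Sfrp1 (difference 1.06, SE 0.23, edgeR adjusted p = 0.0256) and Mmp14 (difference 0.61, SE 0.12, edgeR adjusted p = 0.0177). Without mouse 3 the differences of these 4 genes were 1.04, 0.88, 0.97 and 0.52, no longer called (edgeR adjusted p = 0.0674, 0.0713, 0.0758 and 0.0556). Differences still called without mouse 3 were those of Spon1, a matrix protein gene (1.01, SE 0.15, edgeR adjusted p = 0.00246, and 0.00939 without mouse 3), Col8a1 (1.06, SE 0.17, edgeR adjusted p = 0.00266, and 0.0151), Kcnj15, a potassium channel gene (1.75, SE 0.29, edgeR adjusted p = 0.00306, and 0.00939), and Pxdn (0.87, SE 0.16, edgeR adjusted p = 0.00931, and 0.0246).

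Htra4, a secreted serine protease gene, went the other way. In MRL/MpJ it measured 28.0, 30.6, 30.8, 25.3 and 32.7 CPM in the injured joints and 17.1, 17.2, 19.8, 16 and 13.7 CPM in the uninjured joints, with no overlap. In STR/ort it measured 24.9 ± 2.38 CPM (SD, n = 5) in injured and 32.4 ± 3.89 CPM in uninjured joints. The difference of the effects was -1.19 (SE 0.16, edgeR adjusted p = 0.000394, and 0.000858 without mouse 3), and the effect in C57BL/6 was 1.06. In MRL/MpJ at 1-day it was called lower (-1.52). Serpina1b, an alpha-1-antitrypsin gene, rose in MRL/MpJ by 1.14 and had -0.39 in STR/ort (difference -1.52, SE 0.32, edgeR adjusted p = 0.0181, and 0.0047 without mouse 3). It has near-identical gene copies among which reads may be split, so its value is uncertain. Cbln1 (difference -1.36, SE 0.33, edgeR adjusted p = 0.0468) was not called without mouse 3, where the difference was -1.40 (edgeR adjusted p = 0.1), nor with the mouse as a block (-1.35, edgeR adjusted p = 0.0766).

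**Figure D5:**
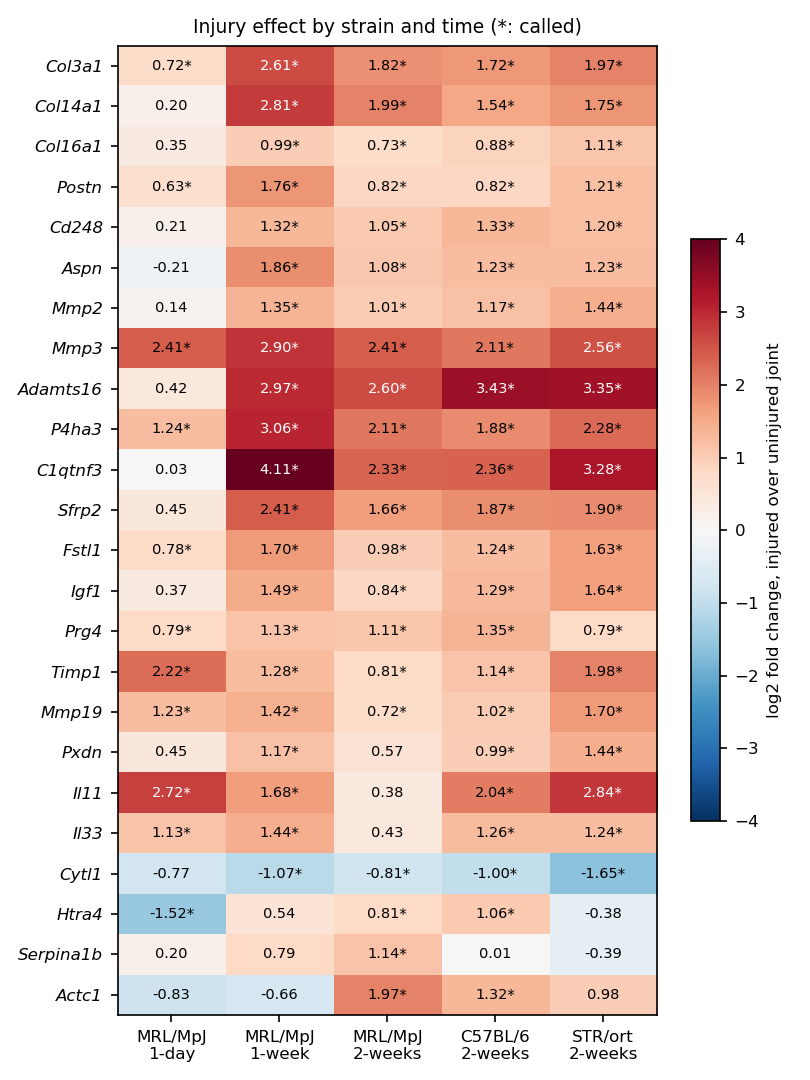
Log2 fold changes of injured over uninjured joints (colour and printed value) for 24 genes (y axis) at the 3 times in MRL/MpJ and in C57BL/6 and STR/ort at 2-weeks (x axis). An asterisk marks a call in that comparison. Col14a1 is called in every column but 1-day, Il11 is called in every column but MRL/MpJ at 2-weeks, Htra4 is negative in STR/ort and at 1-day, and Actc1 is positive only at 2-weeks.

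In MRL/MpJ joints at 1-week (5 injured and 4 uninjured joints, batch 1), 508 genes were called higher (2.93% of all genes) and 33 lower (0.191%), and at 1-day 264 higher (1.53%) and 86 lower (0.497%). Of the 198 genes of 2-weeks, 177 (89.4%) were called higher at 1-week, where they make up 34.8% of the calls, and 49 (24.7%) at 1-day. All 49 were called at all 3 times, and 8 of the 198 were called lower at 1-day. Their median log2 fold change was 0.26 at 1-day, 1.35 at 1-week and 0.83 at 2-weeks. Col3a1 had 0.72, 2.61 and 1.82, C1qtnf3 0.03, 4.11 and 2.33, and Prg4 0.79, 1.13 and 1.11. Il11, a cytokine of fibroblasts, had 2.72, 1.68 and 0.38, Timp1 2.22, 1.28 and 0.81, and Ccl2 3.65, 0.63 and 0.22. The number of called members of the inflammatory list was 12 of 30 at 1-day, 5 at 1-week and 0 at 2-weeks, and that of the activated fibroblast list 9, 22 and 16 of 36.

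The change of the injury effect between 1-week and 2-weeks was tested in a fit of 58 libraries, each effect being taken within its own batch. It was called for 1 gene (0.00578% of all genes) by edgeR's quasi-likelihood test, with 788 genes at an unadjusted p under 0.05. That gene was Actc1, which encodes the cardiac alpha actin that skeletal muscle makes while developing or regenerating (chromosome 2, 114047282 to 114052875). It measured 110.3, 83.2, 16.2, 167 and 97.6 CPM in the injured joints of 2-weeks and 34.4, 22.2, 23.0, 17.8 and 23.1 CPM in the uninjured joints. Mouse 3 was lower in the injured joint, and the other 4 mice were above every uninjured joint. At 1-week its level was 40.3 ± 10.95 CPM (SD, n = 5) in injured and 65.1 ± 11.1 CPM (n = 4) in uninjured joints. The difference of the effects was 2.66 (SE 0.50, edgeR adjusted p = 0.0397). The call was lost with scaling by housekeeping genes, with only the groups compared in the fit, and when any of mice 1, 2, 4 or 5 was left out. It was also lost in most fits with 1 library left out. The 2-weeks effect on Actc1 was 1.32 in C57BL/6 and 0.98 in STR/ort. Of the 21 genes of muscle regeneration and denervation none was called at 2-weeks by edgeR or DESeq2, with 1 at an unadjusted p under 0.05. Without mice 3 and 4, 3 of the 21 were called lower, but 0 of 12 fast and 0 of 8 slow muscle markers. The 107 genes called lower there included 8 muscle genes picked after their values were seen, Trim63, Musk, Mstn, Ppargc1a, Myf6, Nos1, Scn4a and Fbxo32, and since the mice left out were also chosen after seeing the data, this is a description with no test. With all mice none of the 8 was called (log2 fold changes -0.52 to -0.14). Their log2 ratios were 0.27 to 0.95 in mouse 4 and -0.35 to 0.35 in mouse 3. In slow muscle markers, summed at 406 to 917 CPM against 396 to 1105 CPM, the groups overlapped.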

How the data were processed

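Whole-joint RNA was sequenced after poly(A) selection. The authors deposited a table of counts per gene for 100 libraries. The submitters' processing notes name TopHat2 2.0.11, featureCounts and the mm10 build, and the study called genes with RUVseq and edgeR at a false discovery rate under 0.05 and over 1.5-fold. Strandedness is not given in the sources used here.

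Of 17313 deposited rows, 3 exact repeats were dropped, leaving 17310 genes. 24 names that a spreadsheet had turned into dates were tested but are not named. A filter of 2 counts in 5 libraries removed 0 genes. TMM-scaled counts of the 30 libraries of 2-weeks were fitted with edgeR's quasi-likelihood test (edgeR 4.0.16, limma 3.58.1, R 4.3.3), with the 1-week and 1-day effects fitted on their own libraries and their difference from 2-weeks on 58. Adjusted p-values are Benjamini-Hochberg over all genes, and calls need an adjusted p under 0.05 and over 1.5-fold. DESeq2 1.42.0, other scalings, filters, sample sets and leave-one-out fits were alternatives. For printed CPM the TMM factors were computed on the 100 libraries together. A prior count of 2 entered log2 CPM.

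Replicates are separate mice. By the labels, which give an animal number only at 2-weeks, same-numbered joints of 2-weeks came from the same mouse. The correlation of their deviations from the group means was -0.298 to 0.105 (median -0.185, n = 5 pairs), against -0.351 to 0.408 (median 0.016) for the 20 pairs of different mice. On simulated counts of the MRL/MpJ comparison at 2-weeks over 17310 genes with 200 changed, 90% of 2-fold and 100% of 4-fold changes were recovered with 4 false calls. The changed genes were drawn from those with a mean over 1 CPM, and genes were simulated independently, so recovery of lower genes was not measured.

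Named genes were the 10 called higher with the smallest adjusted p, all called lower, the 5 largest changes at 1 CPM or more, the called member of each list with the smallest adjusted p, a fixed set of joint genes, and up to 3 called genes per direction of each tested difference. Further called members of the lists are named with their fold change. The comparison, members and lists were chosen with earlier results of these data known. RefSeq positions (GRCm38.p6) matched 16662 genes by symbol.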

Additional observations from a re-analysis of the deposited data

Results flagged for a closer look

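The injured joint of mouse 3 lay apart from the other 4 injured joints in several genes: Postn at 221 CPM, Mmp2 at 132 CPM, Medag at 16.8 CPM, Pdpn at 11.3 CPM, Mmp19 at 10.2 CPM and Sfrp1 at 9.11 CPM, in each case the lowest. The injured joint of mouse 4 was the highest in the myosin gene Myh4 (43287 CPM), in summed fast muscle markers (134595 CPM) and in fat markers (1791 CPM), and the lowest in neutrophil (13783 CPM) and mast cell markers (96.6 CPM). Among the uninjured joints, Adamts5 was low in mouse 2 (41.9 CPM), Il33 was high in mouse 1 (7.56 CPM), Acta2 was high in mouse 3 (80.0 CPM) and skin markers were high in mouse 4 (7.29 CPM). These 15 were found by Dixon's test among 142 groups of 5 libraries, and chance alone gives about 1 in 20. The cause was not tested.

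The injury effect at 2-weeks differed between STR/ort and MRL/MpJ, by the tested difference on the log2 scale, for Timp1 (1.17), Mmp14 (0.61), Mmp19 (0.98), Sfrp1 (1.06), Pxdn (0.87), Spon1 (1.01), Col8a1 (1.06) and Kcnj15 (1.75), larger in STR/ort, and for Htra4 (-1.19), Serpina1b (-1.52) and Cbln1 (-1.36), larger in MRL/MpJ. Without mouse 3 the differences of Timp1 (1.04), Mmp14 (0.52), Mmp19 (0.88), Sfrp1 (0.97) and Cbln1 (-1.40) were no longer called. Within MRL/MpJ the effect on Actc1 was higher at 2-weeks than at 1-week by 2.66, a call that was lost in most fits with 1 library left out.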

How the results depend on the processing

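The count of 201 called genes lay between 171 and 229 under other scalings, filters, tools and sample sets, between 156 and 260 with 1 library left out, and between 128 and 251 with 1 mouse left out, and was 415 without mice 3 and 4, a choice made, like leaving out whole mice, after seeing the data. The mouse as a replicate block gave 192 calls, 184 of the higher ones shared, and ended, of the genes named as called, the calls of 0610009E02Rik, 4933430I17Rik, Apln, Pla2g2e, C1s1, Dcn, Fmod and Ace, the last 4 by the fold threshold, and of the tested differences of named genes that of Cbln1, and no other call. The 78 genes with a different effect in STR/ort became 49 with RLE size factors, 149 with RUVg and 2 factors, 37 with filterByExpr, 36 with only the groups compared and 28 with all 100 libraries, 21 to 150 with 1 library and 16 to 148 with 1 mouse left out, and 229 without mice 3 and 4 (85 larger and 144 smaller in STR/ort). The difference from C57BL/6 rose from 0 to 2 genes with DESeq2 and 3 with the likelihood ratio test, 0 to 4 with 1 library and 0 to 24 with 1 mouse left out, and 334 without mice 3 and 4. The difference from 1-week moved from 1 gene to 0 with housekeeping scaling, 2 with the replicate block, 2 other genes with only the groups compared and 0 to 1 with 1 library or mouse left out. In that last difference the replicate block paired the earlier joints by replicate number alone, since their labels give no animal number. Beyond the number of samples or genes entering a fit, the cause of these shifts in the counts was not tested.

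The log2 fold changes that turned were all of genes not called. Mmp13 was 0.00 with RLE and with DESeq2, 0.02 with filterByExpr, and -0.10 to 0.30 with libraries or mice left out. In such fits Ccl2 ranged from -0.02 to 0.60, Il11 from -0.09 to 1.03, B4galnt2 from -0.13 to 0.12, Tpsab1 from -0.14 to 0.09, Col2a1 from -0.08 to 0.46, Acta2 from -0.11 to 0.15 and Myh4 from -0.30 to 0.17. Myh4 was -0.01 with RUVg and 1 factor, -0.02 with 2 factors and -0.01 with the replicate block. Of the single-gene values under alternatives, 1528 kept direction and side of the threshold, 71 lost the call, 12 gained it and 30 turned. Genes under 1 CPM, such as Il6 and Ccl2, had few counts, and the effect of depth on their calls was not tested.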

Other observations

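Several smaller gene families, grouped after their values were seen, held called genes. Of 6 genes of the imprinted Dlk1-Dio3 region, Dlk1, Meg3 and Rian were called higher (log2 fold changes 1.01, 0.93 and 0.88, edgeR adjusted p = 0.0411, 0.00325 and 0.00964), each in the injured joint of 5 of 5 mice, with a median of 0.97 over the 6. Rian, a non-coding RNA, measured 23.5, 28.9, 15.3, 35.5 and 24.9 CPM in the injured joints and 14.7, 14.1, 12.3, 14.3 and 13.9 CPM in the uninjured joints, with no overlap. The same 3 genes were called in C57BL/6 and STR/ort at 2-weeks. Dlk1 was not called without mouse 3 (1.07, edgeR adjusted p = 0.0585) or without mice 3 and 4 (1.11, edgeR adjusted p = 0.0538). Without mice 3 and 4, Mirg (1.51, edgeR adjusted p = 0.0492) and Dio3 (4.3, edgeR adjusted p = 0.0488) were called higher, although Dio3 was at 0.367 CPM or less in every library.

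Of 7 C1q/TNF-related genes, C1qtnf1 (0.74), C1qtnf2 (1.46), C1qtnf3 (2.33) and C1qtnf6 (0.71) were called higher. Angptl1 (1.73) and Angptl2 (0.71) were called among 7 angiopoietin-like genes, and Pla2g2a (2.37) and Pla2g2e (1.72) among 3 secreted group II phospholipases. Pla2g2e was not called with the mouse as a block (edgeR adjusted p = 0.134) or without mice 3 and 4 (edgeR adjusted p = 0.113). Ace (0.59) and Agtr2 (2.37) were called among 8 renin-angiotensin genes, and Ace fell under the fold threshold with the mouse as a block (0.57).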
